A study of Homo sapiens with 12 samples.

Results

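siLong1 is an siRNA directed at the transcripts of NFYA that carry the longest 3′ untranslated region. Its 2 libraries were set against the 4 control libraries of the series, 2 of mock and 2 of siControl, out of 12 libraries in all, and every gene with enough reads was followed, 17730 of the 63677 listed. siLong1 cells received this siRNA at 62.5 nM; mock cells were transfected without any siRNA; siControl cells received a non-targeting siRNA at 62.5 nM. The other groups, used where siLong1 is compared beyond its controls, were siLong2 (another sequence to the long NFYA transcripts) and siTotal1 and siTotal2 (sequences to all NFYA transcripts), with 2 libraries each. All groups were HCT116, a human colon carcinoma line of epithelial origin, transfected with Lipofectamine 2000 and harvested 72 h later, and polyadenylated RNA was sequenced. The submitters describe the 2 libraries of a group as biological duplicates. siLong1 is thus 1 siRNA sequence in 1 cell line, so p-values cover differences between libraries and not between siRNAs.

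NFYA encodes the DNA-contacting subunit of NF-Y, a trimer with the products of NFYB and NFYC that binds CCAAT boxes in promoters and is known as an activator of cell cycle, endoplasmic reticulum and lipid synthesis genes. An siRNA guides the Argonaute proteins of the RNA interference machinery to RNAs that it matches along its length. Like a microRNA, it can also lower RNAs that pair with its seed, the bases near the 5′ end of the guide strand, most often within 3′ untranslated regions.

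The sequences of the siLong siRNAs are shown because the guide strand sets both the intended target and the seed. The labels give the sense strand of 2 siLong siRNAs and number the groups, without stating which sequence carries which number; the first in the list is taken here as siLong1. Capitals mark the seed, bases 2 to 8 of the antisense (guide) strand, which is the complement of the listed sense strand, written 5′ to 3′.
First siLong sequence, sense strand: agugaucauuguaggguaa
First siLong sequence, antisense strand: uUACCCUAcaaugaucacu
Second siLong sequence, antisense strand: uGAUGCUAaaggaaugacc
The seeds UACCCUA and GAUGCUA differ, and the 7-base words that pair with them in a target RNA are UAGGGUA for the first and UAGCAUC for the second.

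Gene counts summed to 35761584 and 38023177 reads in the siLong1 libraries, against 37358606 to 49746637 reads in the 4 control libraries. The siLong1 libraries differed from each other by a root mean square of 0.309 on the log2 CPM scale (CPM being reads scaled to the TMM-adjusted library size), from the mock libraries by 0.575 to 0.597 and from the siControl libraries by 0.642 to 0.656. The 2 control groups also differed, by 0.485 to 0.505. Reads on mitochondrial transcripts made up 5.45% and 5.77% of the siLong1 libraries, against 4.58% and 3.83% of the mock libraries and 3.901% and 4.98% of the siControl libraries. Markers of a colon epithelial line fitted the label, with a summed level of 5805 to 5812 CPM in siLong1, against 3682 to 3897 CPM in mock and 3702 to 3770 CPM in siControl; 12 were matched and 10 tested, and CDX1 was at 0 in these 6 libraries. Markers of fibroblasts (5 of 9 tested) summed to 30.1 to 34.7 CPM in siLong1, 26.4 to 46.2 CPM in mock and 34.0 to 35.4 CPM in siControl. Neural markers (3 of 7 matched were tested) summed to 49.7 to 51.2 CPM in siLong1, 49.7 to 52.8 CPM in mock and 61.02 CPM in both siControl libraries, with NEFM at 0. Blood cell markers stayed under 0.742 CPM in all 6 libraries, with PTPRC and MS4A1 at 0.

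NFYA, the targeted gene, stood at 47.7 and 46.5 CPM in siLong1, against 55.2 and 59.1 CPM in mock and 57.4 and 57.5 CPM in siControl. The siLong1 libraries lay below all 4 control libraries, and the fall was 0.28 against mock and 0.29 against siControl on the log2 scale (SE 0.05 in each, edgeR quasi-likelihood adjusted p = 1.1e-05 and 6.9e-06). The count adds up all NFYA transcripts, so the loss of the long form by itself was not measured. In the libraries labelled siLong2, which target the same form, NFYA was at 69.7 and 70.1 CPM, and siLong1 was lower than siLong2 by 0.57 (adjusted p = 3.3e-12). The siLong2 libraries thus lay above all 4 controls in the summed NFYA count, which does not show the knockdown their label names, and siLong2 below stands for the libraries so labelled. Against the siRNAs to all transcripts the difference was small, -0.01 to siTotal1 (adjusted p = 0.92) and 0.03 to siTotal2 (adjusted p = 0.64).

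The partner subunits showed no such fall. NFYB stood at 36.1 and 32.5 CPM in siLong1, against 33.6 and 33.8 CPM in mock and 31.5 and 33.6 CPM in siControl, which overlap, and did not pass against either control (adjusted p = 0.77 and 0.30). NFYC stood at 60.8 and 61.2 CPM in siLong1, against 57.1 and 58.9 CPM in mock and 56.0 and 55.0 CPM in siControl; it did not pass against mock (0.07, adjusted p = 0.21) and was higher by 0.14 against siControl (adjusted p = 0.019), a call that ended without any 1 of the siLong1 or siControl libraries (0.11 to 0.14, adjusted p = 0.075 to 0.14). Both subunits were lower in siLong1 than in the siTotal groups, NFYB by 0.77 and 0.62 and NFYC by 0.69 and 0.47 against siTotal1 and siTotal2. OARD1, a deacylase gene that overlaps NFYA on the opposite strand, stood at 17.8 and 16.7 CPM in siLong1, against 23.8 and 27.3 CPM in mock and 26.7 and 27.5 CPM in siControl, and fell by 0.56 against mock and by 0.65 against siControl. No source used here gives the strand setting of featureCounts, the read counter, so reads of genes that overlap on opposite strands may not be told apart. This holds for every such pair, and not all overlaps of the genes below are named.

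In siLong1 against mock, 9227 genes differed, 52.0% of those tested, with 4604 higher (26.0%) and 4623 lower (26.1%). Against siControl 9666 genes differed (54.5%), with 4689 higher (26.4%) and 4977 lower (28.1%). A gene was called at an adjusted p under 0.05 (edgeR quasi-likelihood F-test, Benjamini-Hochberg over all genes tested), and rose and fell are used below of genes called against both controls. The controls themselves differed in 7065 genes (39.8%), with mock higher in 3464 (19.5%) and lower in 3601 (20.3%) than siControl, so a gene is said to have held where it was called in siLong1 with the same sign against each of them. In all 6291 genes held (35.5%), 3054 of them higher (17.2%) and 3237 lower (18.3%), and 761 held by at least 2-fold in each comparison (4.29%), 431 higher (2.43%) and 330 lower (1.86%). Among the 12417 genes above an average log2 CPM of 1, 244 held by 2-fold, 114 higher and 130 lower, so the balance of directions turned with this floor. Both comparisons use the same siLong1 libraries, so they are not independent. With the controls weighted equally in 1 contrast, 9839 genes differed (55.5%).

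**Figure D1:**
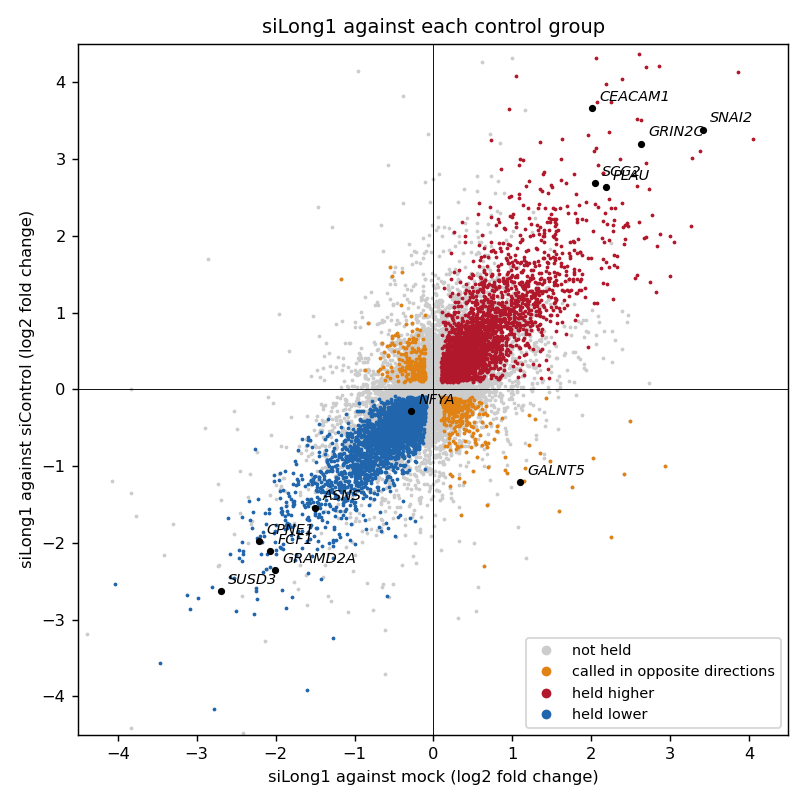
Log2 fold change of each tested gene in siLong1 against mock (horizontal axis) and in siLong1 against siControl (vertical axis); red and blue points held higher or lower against both, orange points were called in opposite directions and grey points did not hold. Axes end at 4.5, which leaves out 33 genes; the 3054 genes that held higher fill the upper right quadrant and the 3237 that held lower fill the lower left.

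The genes that held highest in siLong1, ranked by the smaller of the 2 changes among genes with an average log2 CPM above 1, were led by GRIN2C, PLAU and SCG2. PLAU, which encodes the secreted protease urokinase that activates plasminogen, stood at 272 and 287 CPM in siLong1, against 62.6 and 60.4 CPM in mock and 45.5 and 44.7 CPM in siControl. It rose by 2.18 on the log2 scale against mock (SE 0.04, adjusted p = 5.5e-30) and by 2.63 against siControl (SE 0.05, adjusted p = 3.5e-32), and both siLong1 libraries lay above every other library of the series. The granin gene SCG2 stood at 46.0 and 48.7 CPM in siLong1, against 11.2 and 11.7 CPM in mock and 7.17 and 7.54 CPM in siControl, and rose by 2.05 against mock and by 2.68 against siControl. DPP4, a cell-surface peptidase gene, stood at 35.8 and 34.98 CPM in siLong1, against 8.57 and 10.7 CPM in mock and 7.65 and 7.57 CPM in siControl, and rose by 1.89 against mock and by 2.22 against siControl. In all 3 genes the siLong1 libraries lay close together and far above both controls.

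GRIN2C, which encodes a subunit of the NMDA-type glutamate receptor, had the largest smaller change of the genes ranked, at 8.02 and 8.21 CPM in siLong1, against 1.69 and 0.867 CPM in mock and 0.815 and 0.943 CPM in siControl, and rose by 2.63 against mock and by 3.20 against siControl. CEACAM19, of the carcinoembryonic antigen family, stood at 12.9 and 14.0 CPM in siLong1, against 2.88 and 2.62 CPM in mock and 3.99 and 3.99 CPM in siControl, and rose by 2.29 against mock and by 1.75 against siControl. IRAK2, a kinase gene of interleukin-1 receptor signalling, stood at 14.8 and 17.2 CPM in siLong1, against 5.10 and 5.06 CPM in mock and 5.07 and 5.50 CPM in siControl, and rose by 1.65 against mock and by 1.60 against siControl. For each of these the 2 siLong1 libraries exceeded all 4 controls. In siLong2, GRIN2C (3.34 and 3.17 CPM) and IRAK2 (9.33 and 8.44 CPM) also exceeded all 4 controls, and CEACAM19 did not.

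The adhesion gene CEACAM1 stood at 3.53 and 3.28 CPM in siLong1, against 0.674 and 1.04 CPM in mock and 0.184 and 0.350 CPM in siControl, and rose by 2.01 against mock and by 3.66 against siControl. Mock itself was higher than siControl by 1.65. BCL2L15, of the BCL2 family, stood at 3.95 and 4.16 CPM in siLong1, against 1.25 and 1.06 CPM in mock and 0.473 and 0.916 CPM in siControl, and rose by 1.80 against mock and by 2.55 against siControl. ABCA12, a lipid transporter gene best known from skin, stood at 4.94 and 7.20 CPM in siLong1, against 1.67 and 1.88 CPM in mock and 0.999 and 0.727 CPM in siControl, and rose by 1.79 against mock and by 2.81 against siControl. These 3 genes were higher still in siLong2, and siLong1 was lower than siLong2 by 1.72, 1.16 and 0.44 (adjusted p = 2.7e-12, 6.0e-09 and 0.012). Reads of CEACAM1 and ABCA12 could include those of the antisense genes LIPE-AS1 and SNHG31, which overlap them. PLAU overlaps C10orf55 and NUDT17 overlaps PIAS3 on the opposite strand. CEACAM19 overlaps PVR, and CPNE1 (below) overlaps RBM12, on the same strand. The 12 also held the nudix hydrolase gene NUDT17 (1.73 and 1.74 against mock and siControl) and the mitochondrial glutamine tRNA gene MT-TQ (1.62 and 1.65), which overlaps MT-TI on the other strand. MT-TQ in siLong1 was not called against siLong2 (-0.16), siTotal1 (0.01) or siTotal2 (-0.09).

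The 12 largest falls, ranked the same way, were led by SUSD3. SUSD3, which encodes a small membrane protein, stood at 1.16 and 0.980 CPM in siLong1, against 6.76 and 7.08 CPM in mock and 6.54 and 6.68 CPM in siControl. It fell by 2.69 against mock (SE 0.16, adjusted p = 1.3e-16) and by 2.63 against siControl (SE 0.16, adjusted p = 3.5e-16). CPNE1, a gene of the calcium-dependent lipid-binding copines, stood at 30.0 and 30.2 CPM in siLong1, against 138 and 141 CPM in mock and 119.9 and 117 CPM in siControl, and fell by 2.21 against mock and by 1.98 against siControl. FCF1, a gene of the machinery that processes ribosomal RNA, stood at 17.4 and 17.4 CPM in siLong1, against 71.1 and 75.1 CPM in mock and 74.2 and 76.2 CPM in siControl, and fell by 2.07 against mock and by 2.11 against siControl. In each of these the siLong1 libraries agreed closely and lay below every other library of the series.

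RAB11FIP4, an effector gene of the recycling GTPase Rab11, stood at 7.26 and 7.47 CPM in siLong1, against 27.4 and 27.7 CPM in mock and 30.2 and 32.2 CPM in siControl, and fell by 1.90 against mock and by 2.08 against siControl. IMPA2, which encodes an inositol monophosphatase, stood at 4.32 and 3.50 CPM in siLong1, against 19.5 and 18.99 CPM in mock and 13.8 and 13.6 CPM in siControl, and fell by 2.30 against mock and by 1.81 against siControl. GRAMD2A, a gene of contact sites between endoplasmic reticulum and plasma membrane, stood at 2.17 and 2.86 CPM in siLong1, against 10.1 and 10.2 CPM in mock and 13.1 and 12.8 CPM in siControl, and fell by 2.01 against mock and by 2.36 against siControl. These falls were also larger than the spread between libraries, with no overlap between siLong1 and either control. IMPA2 also lay below all 4 controls in siLong2 (6.85 and 6.54 CPM), siTotal1 and siTotal2. RAB11FIP4 (15.9 and 15.4 CPM) and GRAMD2A (4.47 and 3.98 CPM) did so in both siTotal1 libraries, but not in both libraries of siLong2 or siTotal2. The transcription factor gene STOX1 (-2.24 and -1.93 against mock and siControl), KRCC1 (-2.12 and -2.15), FAM234A (-1.86 and -1.80), the secreted glycoprotein gene OLFM1 (-1.72 and -1.92) and the antisense genes ZNF503-AS1 (-1.71 and -1.84) and SDCBP2-AS1 (-1.67 and -1.85) completed the 12 largest falls.

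**Figure D2:**
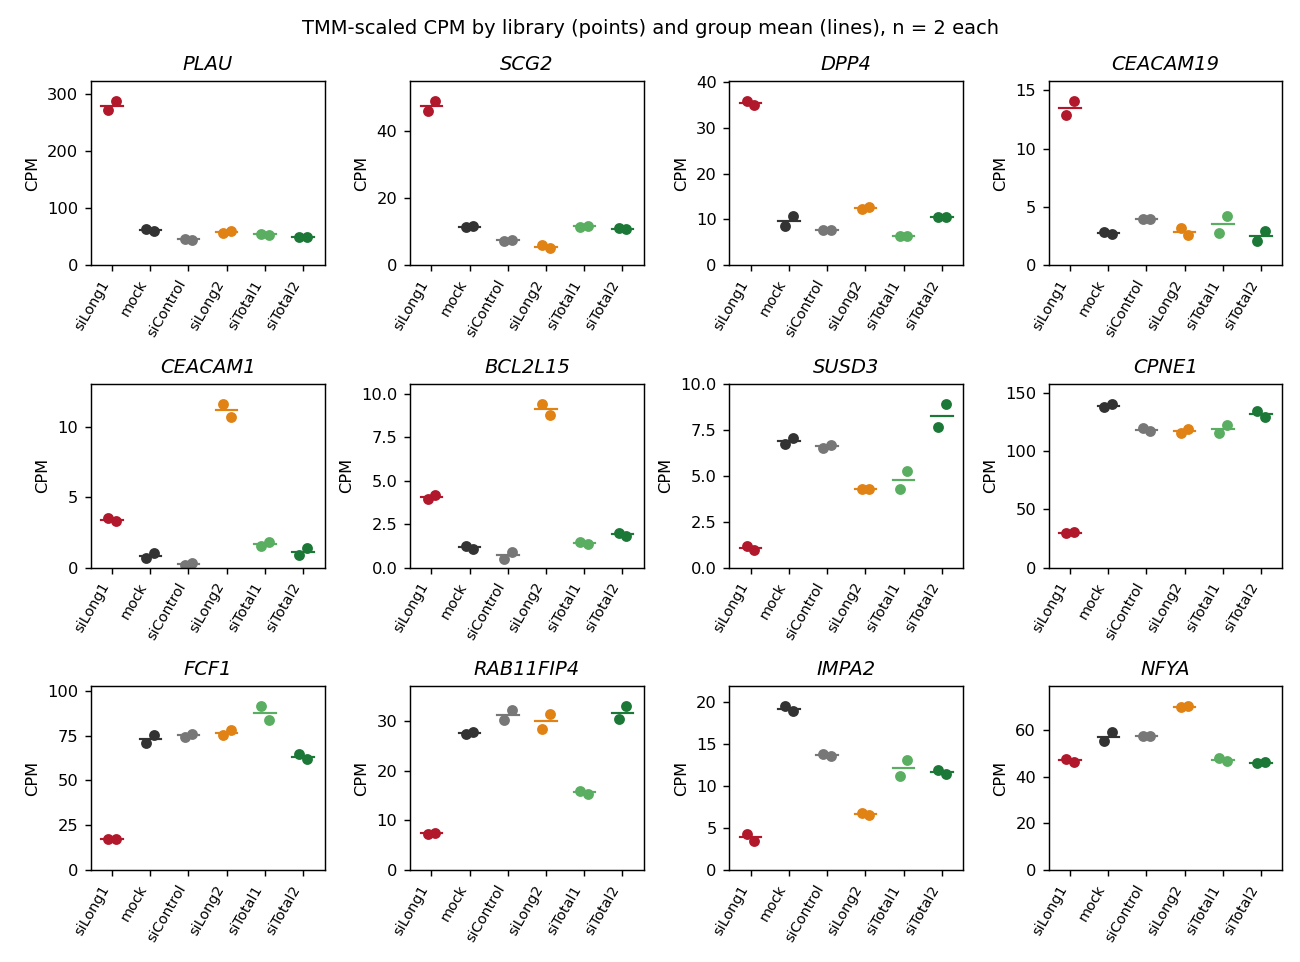
TMM-scaled CPM of 12 genes in each library (points) with the mean of each group of 2 (lines); siLong1 is at the left of every panel, followed by mock, siControl, siLong2, siTotal1 and siTotal2. The siLong1 points of PLAU, SCG2, DPP4 and CEACAM19 lie above all other libraries, those of SUSD3, CPNE1, FCF1, RAB11FIP4 and IMPA2 lie below them, and CEACAM1 and BCL2L15 are higher in siLong2.

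Because mock and siControl are not the only groups without this siRNA, siLong1 was also tested against siLong2, siTotal1 and siTotal2. It differed from siLong2 in 9521 genes (53.7%), 4741 of them higher and 4780 lower, a number close to that against either control. It differed from siTotal1 in 9332 genes (52.6%) and from siTotal2 in 9488 (53.5%). In 2903 genes (16.4%) siLong1 was called in the same direction against all 5 other groups, 1404 of them higher (7.92%) and 1499 lower (8.45%).

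PLAU led the genes set apart in this way. It stood at 56.3 and 59.2 CPM in siLong2, 54.9 and 53.5 CPM in siTotal1 and 49.7 and 48.6 CPM in siTotal2, and its smallest difference was the one to mock. SCG2 stood at 6.01 and 4.98 CPM in siLong2, 11.3 and 11.7 CPM in siTotal1 and 10.996 and 10.7 CPM in siTotal2, so its difference to siLong2 (3.10) exceeded those to the controls. CEACAM19 and DPP4 were higher than siLong2 by 2.23 and 1.50. Further down, the sugar phosphate transporter gene SLC37A2 stood at 8.53 and 9.03 CPM in siLong1, against 3.17 and 2.77 CPM in mock and 2.55 and 2.61 CPM in siControl, and the Wnt antagonist gene DACT1, whose product binds Dishevelled, at 18.7 and 16.8 CPM in siLong1, against 4.66 and 5.08 CPM in mock and 5.83 and 7.30 CPM in siControl. SLC37A2 was higher than siLong2 by 2.16 and DACT1 by 2.01, and in both genes the siLong1 libraries lay above every other library.

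On the lower side, SUSD3, CPNE1 and FCF1 were lower than siLong2 by 2.00, 1.96 and 2.14. CCNB3, which encodes a cyclin of the B type known from meiosis, stood at 1.47 and 2.09 CPM in siLong1, against 5.08 and 5.75 CPM in mock and 6.83 and 6.17 CPM in siControl, and was lower than siLong2 by 1.78. The kinase gene PSKH1 stood at 3.92 and 6.06 CPM in siLong1, against 17.6 and 16.4 CPM in mock and 14.3 and 13.9 CPM in siControl, and was lower than siLong2 by 1.52. CFAP92 stood at 0.621 and 1.03 CPM in siLong1, against 2.28 and 2.65 CPM in mock and 2.65 and 3.02 CPM in siControl, with 5.60 and 5.52 CPM in siLong2, where it was highest. FCF1 had 75.2 and 78.2 CPM in siLong2, 91.3 and 83.9 CPM in siTotal1 and 64.9 and 61.8 CPM in siTotal2, so its level in siLong1 was low against siRNAs to NFYA as well as against controls.

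In 547 genes (3.09%) siLong1 was called against both controls with opposite signs, so that its direction depended on the control. It was higher than mock and lower than siControl in 318 of them (1.79%) and the reverse in 229 (1.29%). GALNT5, an enzyme gene that starts O-linked glycosylation, stood at 57.9 and 56.5 CPM in siLong1, against 25.9 and 27.5 CPM in mock and 130.4 and 134 CPM in siControl. KRTAP2-3, a keratin-associated protein gene, stood at 7.88 and 8.47 CPM in siLong1, against 3.67 and 3.71 CPM in mock and 18.9 and 18.6 CPM in siControl. Both lay between the controls. In the reverse order, the tensin gene TNS2 (-0.58 against mock and 0.57 against siControl) and the lactosylceramide synthase gene B4GALT6 (-0.65 and 0.60) were lower than mock and higher than siControl. The count of such genes was 320 without the first siLong1 library and 336 without the second.

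Genes of pathways were then followed in lists, read against the 17.2% of all tested genes that held higher and the 18.3% that held lower, whose medians were within 0.01 of 0 against each control. Cell division genes were lower in siLong1. Of 43 G2/M genes 36 held lower and 1 higher, with a median of -0.41 against mock and -0.31 against siControl. CDC25A, a phosphatase gene that drives entry into S phase and mitosis, stood at 41.2 and 40.5 CPM in siLong1, against 72.9 and 70.6 CPM in mock and 84.7 and 80.6 CPM in siControl. The cytokinesis gene ANLN fell by 0.80 against mock and by 0.79 against siControl, the centromere histone gene CENPA fell by 0.84 against mock and by 0.74 against siControl, and the spindle gene HMMR fell by 1.03 against mock and by 0.79 against siControl. In bulk RNA, fewer cells in a phase and less RNA per cell cannot be told apart.

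Genes of G1/S and DNA replication were also mostly lower, more so against mock than against siControl. Of 41 tested, 24 held lower and 0 higher, with a median of -0.39 against mock and -0.25 against siControl. Against mock 34 were called lower and 0 higher, and against siControl 24 lower and 9 higher. In 4 members the 2 calls had opposite signs, and mock was higher than siControl in 24 members. The cyclin gene CCNE2, which acts at the start of S phase, stood at 18.5 and 16.9 CPM in siLong1, against 33.8 and 38.2 CPM in mock and 38.6 and 35.6 CPM in siControl. The replication licensing gene CDC6 stood at 94.2 and 90.3 CPM in siLong1, against 180.0 and 178 CPM in mock and 197 and 196 CPM in siControl. The DNA polymerase alpha subunit gene POLA2 fell by 1.05 against mock and by 0.92 against siControl and the replication initiation gene MCM10 fell by 0.91 against mock and by 0.96 against siControl. The replication clamp gene PCNA, chosen after its values were seen, lay between the controls, at -0.34 against mock and 0.20 against siControl.

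Of 27 genes of homologous recombination and the Fanconi anemia pathway, which repair DNA breaks and cross-links, 22 held lower and 1 higher, with a median of -0.52 against mock and -0.48 against siControl. BRCA1, a breast cancer susceptibility gene of this pathway, stood at 40.0 and 40.1 CPM in siLong1, against 74.7 and 76.3 CPM in mock and 77.9 and 77.0 CPM in siControl. RAD54B, a motor protein gene of recombination, stood at 6.01 and 4.98 CPM in siLong1, against 11.98 and 12.4 CPM in mock and 13.1 and 13.5 CPM in siControl, and fell by 1.15 against mock and by 1.28 against siControl. The nuclease gene EXO1 fell by 0.84 against mock and by 0.76 against siControl. In each of them both siLong1 libraries lay below all 4 controls. Against siLong2 these lists did not show the same shift. G2/M genes were higher in siLong1 than in siLong2 in 24 and lower in 7 (median 0.17), G1/S genes higher in 19 and lower in 12 (median 0.10), and recombination genes higher in 8 and lower in 6 (median 0.03). In the members of these lists named above other than PCNA, the siLong2 libraries also lay below all 4 controls. CDC6 stood at 129 and 130 CPM in siLong2, BRCA1 at 49.8 and 46.9 CPM and ANLN at 223 and 217 CPM. The lists were not counted in siLong2 against the controls.

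Targets of p53, the stress-induced transcription factor that HCT116 carries in functional form, were higher. Of 30 tested, 20 held higher and 1 lower, with a median of 0.38 against mock and 0.39 against siControl. TP53INP1, a gene of stress-induced autophagy and cell death, stood at 47.3 and 47.6 CPM in siLong1, against 23.3 and 25.5 CPM in mock and 7.70 and 8.94 CPM in siControl. BTG2, an antiproliferative gene, stood at 77.4 and 82.7 CPM in siLong1, against 39.5 and 44.6 CPM in mock and 32.2 and 32.6 CPM in siControl, and SESN1, a gene of the nutrient-sensing sestrins, at 32.7 and 34.2 CPM in siLong1, against 17.7 and 19.9 CPM in mock and 12.2 and 14.1 CPM in siControl. All 3 rose against both controls, TP53INP1 by 0.96 and 2.51. CDKN1A, the cell cycle inhibitor gene p21, rose by 0.79 against mock and by 0.62 against siControl, whereas MDM2, which encodes the p53 inhibitor, was at 0.24 against mock and -0.30 against siControl; both were chosen after their values were seen. The p53 targets were lower in siLong1 than in siLong2 in 21 of 30 and higher in 3 (median -0.43).

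**Figure D3:**
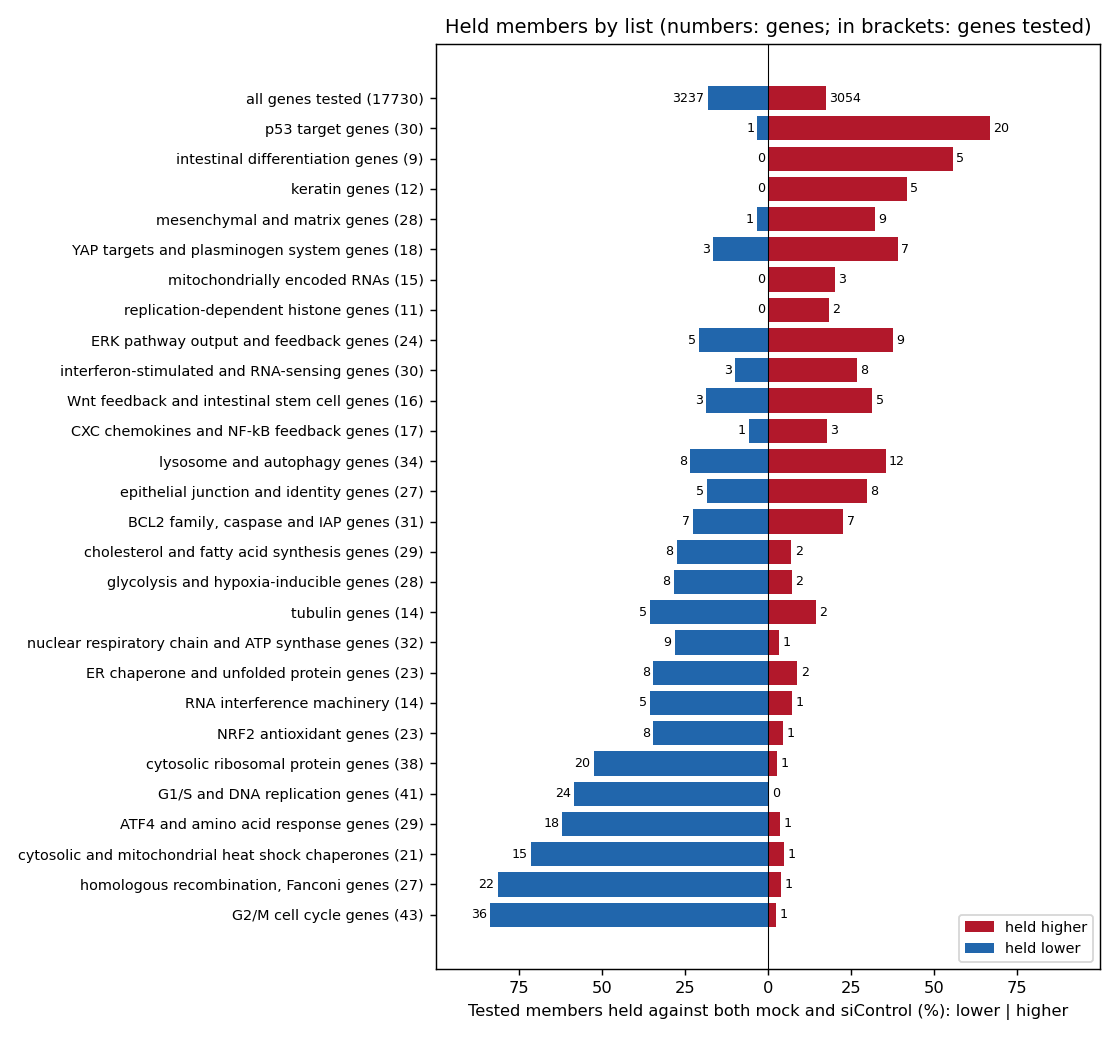
Share of tested members of each list, in percent, that held higher (red, to the right) or lower (blue, to the left) in siLong1 against both mock and siControl; numbers at the bars count genes, numbers in brackets give the genes tested, and the top row gives all 17730 genes. The G2/M, recombination, heat shock, ATF4 and G1/S lists have most of their members on the lower side and the p53 list on the higher side.

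Genes that the transcription factor ATF4 raises when amino acids run short were lower. Of 29 tested, 18 held lower and 1 higher, with a median of -0.54 against mock and -0.47 against siControl. The asparagine synthetase gene ASNS stood at 53.7 and 51.1 CPM in siLong1, against 151 and 146 CPM in mock and 156 and 149 CPM in siControl, and fell by 1.50 against mock and by 1.54 against siControl. PCK2, the mitochondrial form of phosphoenolpyruvate carboxykinase, stood at 9.15 and 8.84 CPM in siLong1, against 27.7 and 26.6 CPM in mock and 25.8 and 22.6 CPM in siControl. The glutathione-degrading enzyme gene CHAC1 fell by 1.10 against mock and by 1.88 against siControl, and the mitochondrial folate enzyme gene ALDH1L2 fell by 1.78 against mock and by 1.09 against siControl. ATF4 itself, chosen after its values were seen, fell by 0.55 against mock and by 0.90 against siControl. Some stress members of the list did not hold: DDIT3 was at -0.05 against mock (adjusted p = 0.66) and -1.02 against siControl. In 9 members siLong1 was lower than all 5 other groups. Against siLong2 the list was lower in 14 and higher in 9 (median -0.14). CHAC1 and PCK2 were not called against siLong2 (-0.13 and -0.17, edgeR quasi-likelihood adjusted p = 0.44 and 0.14).

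Chaperone and ribosomal protein genes were also lower. Of 21 cytosolic and mitochondrial heat shock chaperones 15 held lower and 1 higher, with a median of -0.39 against mock and -0.32 against siControl. HSP90AA1, the inducible HSP90 gene, stood at 3308 and 3109 CPM in siLong1, against 5414 and 5593 CPM in mock and 4794 and 4914 CPM in siControl. HSPA1B fell by 0.68 against mock and by 0.89 against siControl, and its reads could be split with those of its near-identical copy HSPA1A. HSPE1, the mitochondrial co-chaperonin gene, fell by 0.42 against mock and by 0.43 against siControl. Against siLong2 the list was lower in 15 and higher in 2, and in 10 members siLong1 was lower than all 5 other groups. Of 38 cytosolic ribosomal protein genes 20 held lower and 1 higher, by small amounts (median -0.15 against mock and -0.16 against siControl); RPS9 fell by 0.57 against mock and by 0.51 against siControl and RPL13A fell by 0.49 against mock and by 0.60 against siControl. Endoplasmic reticulum chaperones and unfolded protein response genes, a class that NF-Y is known to bind, were mixed: 8 of 23 held lower and 2 higher. HSPA5, the chaperone BiP, stood at 865 and 846 CPM in siLong1, against 1084 and 1103 CPM in mock and 1218 and 1199.8 CPM in siControl; P4HB fell by 0.73 against mock and by 0.45 against siControl and the transcription factor gene XBP1 fell by 0.42 against mock and by 0.57 against siControl.

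Keratin and intestinal differentiation genes had members held higher and none lower. Of 12 keratin genes 5 held higher and 0 lower, with a median of 0.79 against mock and 0.68 against siControl. KRT8, the main keratin of simple epithelium, stood at 2686 and 2697 CPM in siLong1, against 1634 and 1695 CPM in mock and 1475 and 1492 CPM in siControl, and KRT19 at 1283 and 1284 CPM in siLong1, against 721 and 786 CPM in mock and 717 and 740.2 CPM in siControl. KRT20, a keratin of differentiated intestinal cells, rose by 0.90 against mock and by 1.06 against siControl from a low level. KRT7, chosen after its values were seen, lay between the controls, at 1.21 against mock and -0.33 against siControl. Of 25 listed intestinal differentiation genes 9 had enough reads, 5 held higher and 0 lower. Among genes above an average log2 CPM of 1, 3 members held in each of these 2 lists. MUC13, a transmembrane mucin gene, stood at 3.08 and 2.57 CPM in siLong1, against 0.357 and 0.313 CPM in mock and 0.894 and 0.593 CPM in siControl, and the intestinal transcription factor gene HNF4A at 12.3 and 12.4 CPM in siLong1, against 8.17 and 9.24 CPM in mock and 7.99 and 8.86 CPM in siControl. Of 27 epithelial junction and identity genes 8 held higher and 5 lower. The 5 lower are 18.5% of the list, near the 18.3% of all genes that held lower. ELF3, an epithelial transcription factor gene, stood at 99.5 and 102 CPM in siLong1, against 39.6 and 47.6 CPM in mock and 40.7 and 49.8 CPM in siControl. The tight junction gene TJP3 rose by 0.78 against mock and by 1.34 against siControl. The claudin gene CLDN12 fell by 0.78 against mock and by 0.82 against siControl.

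Mesenchymal and matrix genes also had more members higher than lower. Of 28 tested, 9 held higher and 1 lower, though the median was 0.07 against mock and 0.45 against siControl. TIMP2, an inhibitor gene of matrix proteases, stood at 255 and 273 CPM in siLong1, against 137 and 143 CPM in mock and 129 and 131 CPM in siControl. The transcription factor gene ZEB1, a repressor of epithelial genes, stood at 7.90 and 9.08 CPM in siLong1, against 3.97 and 4.26 CPM in mock and 2.08 and 1.83 CPM in siControl. SNAI2, a factor of the same kind, stood at 2.09 and 2.14 CPM in siLong1, against 0.198 and 0.193 CPM in mock and 0.131 and 0.269 CPM in siControl (74 and 81 reads in siLong1, 10 and 8 in mock and 5 and 10 in siControl), and TAGLN, an actin-binding protein gene of smooth muscle, rose by 1.34 against mock and by 1.51 against siControl. The summed level of fibroblast markers overlapped between siLong1 and both controls, as given above. Of 18 YAP target and plasminogen system genes 7 held higher and 3 lower. The 3 lower are 16.7% of the list, near the 18.3% of all genes that held lower. Beside PLAU, the plasminogen activator gene PLAT rose by 1.23 against mock and by 0.82 against siControl, the tissue factor gene F3 rose by 1.19 against mock and by 1.12 against siControl and NT5E, the ectonucleotidase CD73, rose by 1.43 against mock and by 0.92 against siControl. NT5E in siLong1 was lower than in siLong2 by 0.70, was not called against siTotal1 (-0.03) and was higher than in siTotal2 by 0.84. The YAP targets CCN1 and CCN2, chosen after their values were seen, fell, CCN1 by 0.42 and 1.64 and CCN2 by 0.43 and 0.98 against mock and siControl. The list median was 0.44 against mock and -0.18 against siControl, and 14 of its members were lower in mock than in siControl.

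Among 24 genes of ERK output and feedback 9 held higher and 5 lower. The 5 lower are 20.8% of the list, near the 18.3% of all genes that held lower. DUSP4, a phosphatase gene that switches ERK off, stood at 258 and 262 CPM in siLong1, against 102 and 111 CPM in mock and 108 and 113 CPM in siControl, and the transcription factor gene ETV1 rose by 0.57 against mock and by 2.28 against siControl. The immediate early genes FOS and EGR1 went the other way: FOS stood at 23.1 and 23.4 CPM in siLong1, against 78.8 and 73.5 CPM in mock and 36.9 and 43.3 CPM in siControl and EGR1 at 99.8 and 105 CPM in siLong1, against 215 and 206 CPM in mock and 171 and 177 CPM in siControl. Of 16 Wnt feedback and stem cell genes 5 held higher and 3 lower, with medians of opposite sign (-0.21 against mock and 0.25 against siControl). The 3 lower are 18.75% of the list, near the 18.3% of all genes that held lower. Without the first mock library 5 members held in place of 8. MYC rose by 0.35 against mock and by 0.38 against siControl and the cyclin D1 gene CCND1 rose by 0.52 against mock and by 0.33 against siControl. The Wnt antagonist gene DKK1 stood at 107 and 98.0 CPM in siLong1, against 151 and 157 CPM in mock and 659 and 670.3 CPM in siControl, and NKD1, an inhibitor gene of Wnt signalling, fell by 0.89 against mock and by 1.33 against siControl.

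Interferon-stimulated and RNA-sensing genes, which double-stranded RNA can raise, had 8 of 30 members held higher and 3 lower. Against mock 11 were called higher and 3 lower (median 0.19), and against siControl 11 higher and 9 lower (median 0.06). Against siLong2 the list was lower in 16 and higher in 2. IFIH1, which encodes the RNA sensor MDA5, stood at 17.8 and 15.5 CPM in siLong1, against 7.65 and 7.78 CPM in mock and 6.52 and 6.09 CPM in siControl. OAS2, which makes the activator of RNase L, stood at 0.847 and 0.477 CPM in siLong1, against 0.0992 and 0.0722 CPM in mock and 0.131 and 0.189 CPM in siControl (30 and 18 reads in siLong1, and 3 to 7 reads in each control library). IFIT2 rose by 0.97 against mock and by 1.89 against siControl, and the regulator gene IRF7 fell by 0.79 against mock and by 1.22 against siControl. Of 17 chemokine and NF-kB feedback genes 3 held higher and 1 lower. These 3 are 17.6% of the list, near the 17.2% of all genes that held higher. The adhesion gene ICAM1 rose by 0.74 against mock and by 1.06 against siControl. LCN2, which encodes an iron-siderophore-binding protein, stood at 2.03 and 2.12 CPM in siLong1, against 0.952 and 1.06 CPM in mock and 0.158 and 0.0808 CPM in siControl (6 and 3 reads in the siControl libraries). TNFAIP3, an inhibitor gene of NF-kB, fell by 0.48 against mock and by 0.96 against siControl. In 31 genes of the BCL2 family, caspases and IAPs the directions were even, 7 higher and 7 lower. This is 22.6% each way, against 17.2% and 18.3% of all genes. BBC3, the p53-induced killer PUMA, rose by 0.79 against mock and by 0.75 against siControl, and BCL2L13, a receptor of mitophagy, fell by 0.99 against mock and by 1.56 against siControl. Without the first siLong1 library 8 members of this list held in place of 14.

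**Figure D4:**
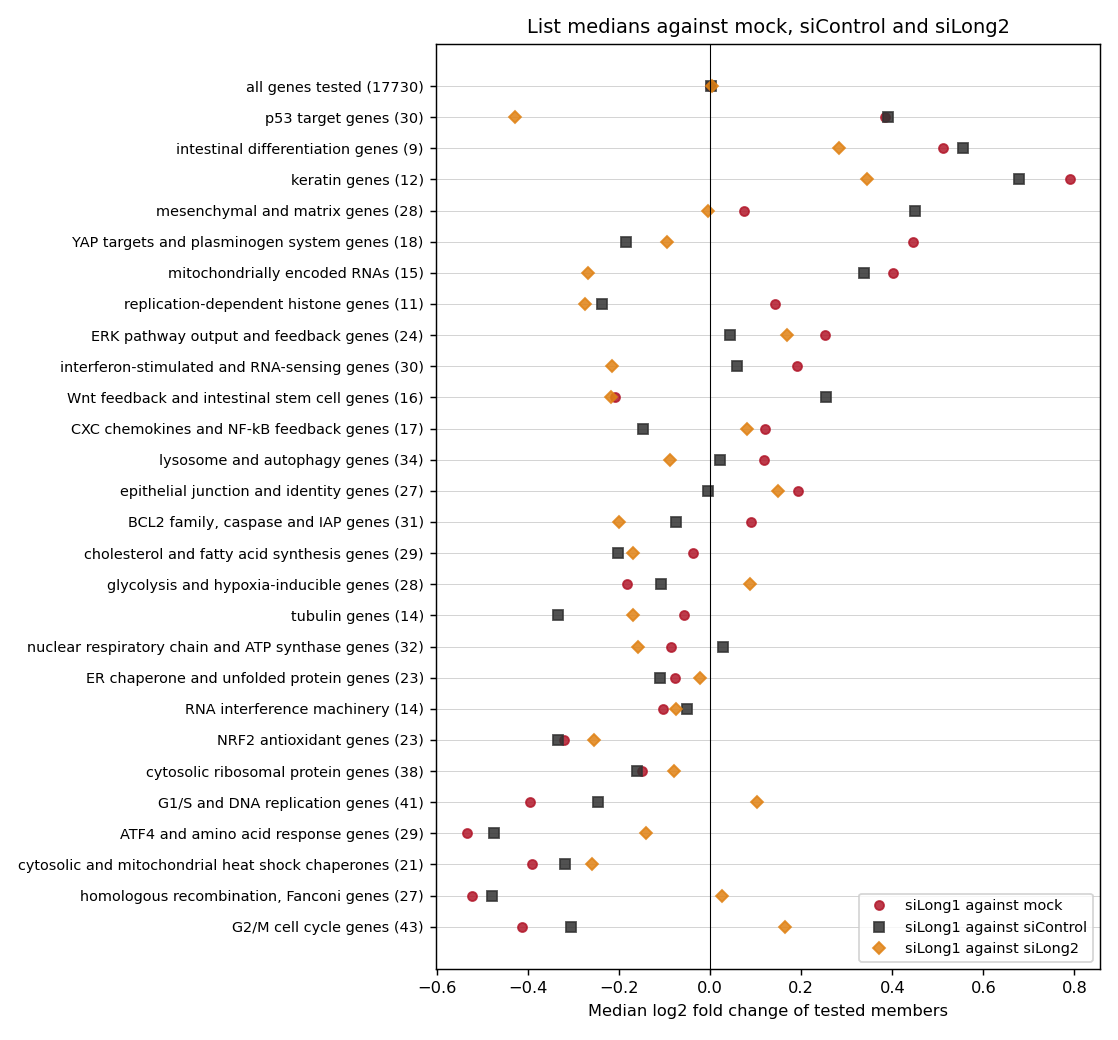
Median log2 fold change of the tested members of each list in siLong1 against mock (red circles), against siControl (dark squares) and against siLong2 (orange diamonds). The G2/M, G1/S and recombination lists are negative against both controls and near or above 0 against siLong2, while the p53 list is positive against both controls and negative against siLong2.

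Of 23 NRF2 antioxidant genes 8 held lower and 1 higher. The exception was FTH1, the ferritin heavy chain gene, which stood at 3247 and 3375 CPM in siLong1, against 1396 and 1543 CPM in mock and 1547 and 1530.5 CPM in siControl. The cystine transporter gene SLC7A11 fell by 0.80 against mock and by 1.03 against siControl, the glutathione synthesis gene GCLM fell by 0.70 against mock and by 0.77 against siControl and OSGIN1 fell by 0.69 against mock and by 1.80 against siControl. Of 29 cholesterol and fatty acid synthesis genes 8 held lower and 2 higher. The sterol sensor gene INSIG1 stood at 45.6 and 46.7 CPM in siLong1, against 85.8 and 98.7 CPM in mock and 119 and 136 CPM in siControl, and the fatty acid desaturase gene SCD at 758 and 754 CPM in siLong1, against 1096 and 1229 CPM in mock and 1177 and 1263 CPM in siControl. In this list 5 members were called in opposite directions, among them HMGCS1, chosen after its values were seen, at 0.34 against mock and -0.74 against siControl. Of 28 glycolysis and hypoxia-inducible genes 8 held lower and 2 higher; the enolase gene ENO2 fell by 0.98 against mock and by 0.88 against siControl and ANKRD37 fell by 1.18 against mock and by 1.24 against siControl.

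Of 15 mitochondrially encoded RNAs 3 held higher and 0 lower. These 3 are 20.0% of the list, near the 17.2% of all genes that held higher; the list median was 0.40 against mock and 0.34 against siControl. MT-RNR2, the large ribosomal RNA of mitochondria, stood at 6659.8 and 6927 CPM in siLong1, against 3230.0 and 2774 CPM in mock and 2545 and 3254 CPM in siControl. MT-RNR1, the small one, stood at 1219.7 and 1177 CPM in siLong1, against 588 and 539 CPM in mock and 519.6 and 696 CPM in siControl. The count of members held was 7 with DESeq2, 5 among genes above a log2 CPM of 1 and 6 without the second siControl library. Both siLong1 libraries had a larger mitochondrial share of reads than all 4 controls, as given above, and its part in these changes was not tested. The share was 6.58% and 6.60% in siLong2, 5.75% and 5.54% in siTotal2 and 3.93% and 4.94% in siTotal1. Against siLong2 the mitochondrially encoded RNAs were lower in 4 and higher in 0 (median -0.27). Of 32 nuclear genes of the respiratory chain 9 held lower and 1 higher. The median of this list was -0.09 against mock and 0.03 against siControl, and 11 members were called higher and 9 lower against siControl. UQCRC2, of complex III, fell by 0.62 against mock and by 0.36 against siControl, UQCRFS1 of the same complex fell by 0.24 against mock and by 0.20 against siControl, and the complex I gene NDUFB5 fell by 0.42 against mock and by 0.20 against siControl. Of this list 6 members held with DESeq2 and without the first siControl library, and 5 without the second siLong1 library, in place of 10.

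Of 34 lysosome and autophagy genes 12 held higher and 8 lower; the lysosomal membrane gene LAMP1 rose by 0.47 against mock and by 0.70 against siControl and the hexosaminidase gene HEXA rose by 0.39 against mock and by 0.45 against siControl, while the acid glucosidase gene GAA fell by 0.82 against mock and by 0.39 against siControl and the autophagy gene ATG9A fell by 0.45 against mock and by 0.49 against siControl. Of 14 genes of the RNA interference machinery 5 held lower and 1 higher. The Argonaute gene AGO1 stood at 77.3 and 76.5 CPM in siLong1, against 117 and 118 CPM in mock and 124 and 129.7 CPM in siControl, and AGO4 at 7.42 and 7.18 CPM in siLong1, against 14.3 and 16.3 CPM in mock and 10.9 and 11.2 CPM in siControl; the RNA-editing enzyme gene ADAR fell by 0.29 against mock and by 0.33 against siControl. AGO2, the slicing Argonaute, was chosen after its values were seen and was at -0.15 against mock (adjusted p = 0.016) and -0.04 against siControl (adjusted p = 0.55). Of 14 tubulin genes 5 held lower and 2 higher; TUBB4B fell by 0.77 against mock and by 0.81 against siControl and TUBA1A rose by 0.58 against mock and by 0.38 against siControl. Of 11 replication-dependent histone genes, whose transcripts mostly lack poly(A) tails, 2 held higher and 0 lower (1 in all above a log2 CPM of 1). These 2 are 18.2% of the list, near the 17.2% of all genes that held higher.

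What genes that fell share in sequence was then described with the seed of the first siLong sequence, which the choice of genes did not use. The 7-base word TAGGGTA (one strand, the DNA form of UAGGGUA) was looked for in the longest annotated 3′ untranslated region of at least 50 bases, available for 13084 of 13268 tested protein-coding genes. It was present in 791 of them, 6.05%. Of these carriers 35.5% held lower and 15.4% held higher in siLong1, against 21.2% and 20.6% of the 12293 genes without the word. The median change of carriers was -0.13 against mock, -0.14 against siControl and -0.13 against siLong2, against 0.01, 0.00 and 0.00 in genes without it. With 2 or more words, 40.6% of 64 genes held lower, and with 1 word 35.1% of 727. Where the word was followed by an A, 38.2% of 249 carriers held lower. siLong1 was lower than all 5 other groups in 20.6% of carriers and in 10.1% of genes without the word.

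Carriers had longer untranslated regions than genes without the word (median 3420 bases against 1254), with less G and C (38.8% against 43.7%). Within regions of at least 2000 bases the shares were 33.8% held lower among 594 carriers and 22.2% among 4068 genes without the word. The same count for other words gave shares closer to the 22.1% of all 13084 genes that held lower: 24.9% of 1125 carriers for the word TGATCAC of the sense strand of the same siRNA, and 24.9% of 948 carriers for the word TAGCATC of the second siLong sequence. Carriers of the word of the second sequence had a median of 0.08 in siLong1 against siLong2. Among genes that held lower, the word was present in 7.34% of 218 genes that fell by at least 2-fold, in 10.5% of 468 that fell by 1.5-fold to 2-fold and in 9.81% of 2201 that fell by less. Of the 12 largest falls named above, 10 had an annotated region to search, and among these only FCF1 carried the word. Transcripts in GENCODE 29 were at hand for 17242 tested genes, and none matched the first siLong sequence at more than 16 of its 19 bases without gaps; of the 10 genes at 16 bases 1 held lower. The NFYA transcripts of that annotation matched at 13 bases at most, so the intended site in the long NFYA transcript could not be placed.

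Stretches around the word are shown for 6 of the 16 carriers that held lower by 2-fold or more, chosen after their values were seen. These 6 are examples of carriers that fell, and whether the siRNA lowered them was not tested. Of all 791 carriers 281 held lower and 122 held higher. Among genes named above, for example, CCND1 and NT5E carry the word and rose. CDC6, MCM10, ANLN and ALDH1L2 carry it and fell. Each line gives the transcript strand of GRCh38 from GENCODE 29, 5′ to 3′, with the word in capitals.
FCF1, chr14:74736884-74736904, plus strand: atagcagtgcTAGGGTAaaag
CLYBL, chr13:99893981-99894001, plus strand: tggtccctatTAGGGTAggat
IL17RD, chr3:57094555-57094575, minus strand: gagtcgctttTAGGGTAttca
KDM7A, chr7:140090775-140090795, minus strand: ttttcagtggTAGGGTAaaga
PHF13, chr1:6622569-6622589, plus strand: ctccaaagaaTAGGGTAaagg
PHF13, chr1:6622710-6622730, plus strand: gagtgagtgaTAGGGTAacat
PTGR2, chr14:73884301-73884321, plus strand: tttagttgcaTAGGGTAtttg
All lie in 3′ untranslated regions, and PHF13 holds 2 copies of the word. CLYBL, a mitochondrial enzyme gene, stood at 2.79 and 3.15 CPM in siLong1, against 10.9 and 11.7 CPM in mock and 9.07 and 8.32 CPM in siControl. IL17RD, a feedback inhibitor gene of FGF and ERK signalling, stood at 8.81 and 8.58 CPM in siLong1, against 24.9 and 26.6 CPM in mock and 24.2 and 24.5 CPM in siControl, and PHF13, a chromatin reader gene, at 22.9 and 23.2 CPM in siLong1, against 52.1 and 54.4 CPM in mock and 55.3 and 51.7 CPM in siControl. In these genes, as in FCF1, the siLong1 libraries lay below all 10 other libraries. The histone demethylase gene KDM7A fell by 1.26 against mock and by 1.82 against siControl, and the prostaglandin reductase gene PTGR2 fell by 1.34 against mock and by 1.19 against siControl. Against siLong2 the siLong1 libraries were lower by 1.60 for CLYBL, 1.79 for IL17RD, 1.41 for KDM7A, 1.06 for PHF13 and 0.73 for PTGR2. A match of the word is a description and does not show that the siRNA bound there.

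**Figure D5:**
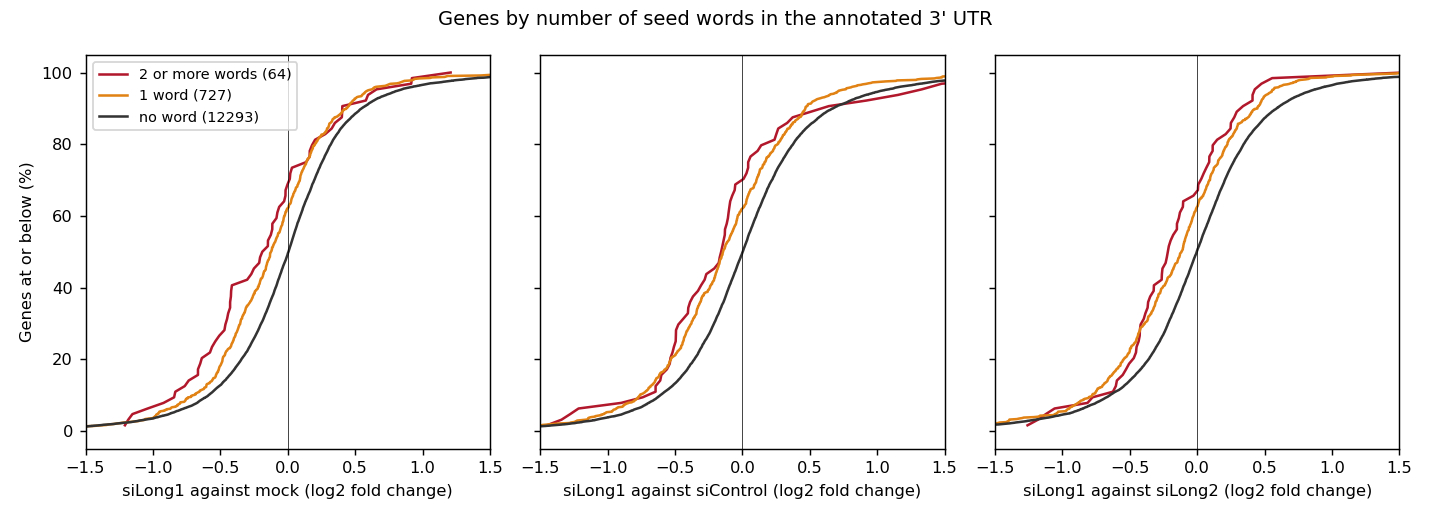
Cumulative share of genes, in percent, at or below each log2 fold change in siLong1 against mock (left), siControl (middle) and siLong2 (right), for genes with 2 or more seed words (red), 1 word (orange) or no word (dark) in the longest annotated 3′ untranslated region. In all 3 panels the curves of the 727 and 64 carriers lie to the left of that of the 12293 genes without the word around 0.

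CCAAT, the word that NF-Y binds, was looked for on either strand of RefSeq promoters (250 bases before to 50 after the start, GRCh38.p14), which were at hand for 10697 of 13268 tested protein-coding genes (80.6%). It was present in 3910 of them, 36.6%. Genes with CCAAT held lower in 23.9% and higher in 18.0%, against 21.8% and 20.6% of the 6787 without it, and with 2 or more copies 26.3% of 1436 held lower. A match of the word is a description of these promoters and says nothing of NF-Y binding.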

How the data were processed

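RNA of 12 HCT116 cultures (6 groups of 2 libraries, grouped by sample title) was selected for poly(A) tails and sequenced with a stranded kit, per the labels' protocols. The submitters' processing notes name STAR 2.4.0f1, featureCounts and the build hg19; no source used here gives the annotation release, strand setting or read filter. The authors deposited raw counts, 1 whole number per Ensembl gene and library, with library totals of 35604197 to 49746637 reads; 0 columns belonged to other samples.

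For testing, filterByExpr left 17730 of 63677 genes (minimum count 10, minimum total 15). The model was edgeR 4.0.16 under R 4.3.3, a robust quasi-likelihood fit of all 6 groups with TMM scaling, 6 residual degrees of freedom and a common coefficient of biological variation of 3.57%. The F-test of each contrast gave p-values that were adjusted by Benjamini-Hochberg over the 17730 genes; a gene was called at an adjusted p under 0.05 and held where it was called with the same sign against mock and against siControl. The rule was also run on simulated counts (17324 genes, 50 changed at each size). There 40% of genes changed 1.2-fold were recovered, 80% at 1.5-fold and 100% at 2-fold and 4-fold, and 1 of 161 calls was false. Simulated mock and siControl shared 1 mean, and changed genes were drawn from those with a mean count above 50. The real controls differed in 39.8% of genes, so these rates may not carry over to the real data. The libraries of each pair differed beyond counting noise, with 1.80 to 7.22 for chi-square over degrees of freedom, and all were kept as separate replicates. Fold changes are log2, and CPM values are TMM-scaled.

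Current symbols were found for 52181 identifiers. Target sites come from GENCODE 29 on GRCh38 and promoters from RefSeq (GRCh38.p14), so their positions are not those of hg19. Named genes are, of those above an average log2 CPM of 1, the 12 held genes each way with the largest smaller change of the control comparisons, the 6 each way set apart from all 5 other groups, the 3 each way called in opposite directions, and, with no such floor, NFYA, NFYB, NFYC and OARD1, and up to 4 held members of each list with at least 3; those whose call ended under an alternative are mostly left to the part on processing, and some genes are not reported here. The groups compared, the 28 gene lists and the rules were chosen with earlier results of these data known. Lists are described by counts and medians, with no set test. Alternatives were DESeq2 1.42.0 (size factors, Wald test), other filters, a fit of 6 libraries, the controls as 1 group, a threshold of 0.01, the replicate number as a block, and leaving out each library.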

Additional observations from a re-analysis of the deposited data

How the results depend on the processing

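Over the alternatives, 3924 values kept their direction and side of the threshold, 49 lost a call, 22 counts or medians moved and 4 changed sign. Genes held against both controls numbered 5050 to 5739 when 1 library was left out, 5243 with DESeq2, 5621 above an average log2 CPM of 1, 4995 at an adjusted p under 0.01 and 6291 as reported. With the controls as 1 group of 4 libraries, 6742 genes differed in place of 9839. Genes held by 2-fold fell to 244 (114 higher and 130 lower) above an average log2 CPM of 1, where 12417 genes were tested, in place of 761. Genes called in opposite directions numbered 320 to 464 when 1 library was left out, in place of 547; with 1 siLong1 library they were 320 and 336, where that lone library is assumed to vary like the other groups. The difference in median between carriers of the seed word and other genes was -0.13 against mock (-0.15 to -0.11 with 1 library left out), -0.15 against siControl (-0.15 to -0.13; -0.13 above a log2 CPM of 1 and -0.14 with 6 libraries) and -0.12 against siLong2 (-0.10 above a log2 CPM of 1). Values that changed sign belonged to genes not called. NFYB was at -0.069 and 0.082 against mock and at -0.012 and 0.139 against siControl without the first and the second siLong1 library, and OARD1 against siLong2 at -0.064 and 0.032, and at 0.011 without the second siLong2 library. The causes were not tested. Calls of KRT16, MT-ND6, NDUFB8, NFKB1, BMF, SLC2A1, HSPA1A, AGO3, ALDOC, DLGAP1-AS1 and NFYC ended under at least 1 alternative and are the least firm of the named genes.

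The replicate numbers share only a number: deviations from the group means correlated by -0.09 to 0.10 between same-numbered libraries. With the replicate block 6309 genes held, 757 by 2-fold, and 555 were called in opposite directions. The siLong1 contrasts with siLong2, siTotal1 and siTotal2 could not be made in the fit of 6 libraries.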
